A study of Homo sapiens with 18 samples.

Results

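TBXT, EOMES, MIXL1, GSC and LHX1 are 5 transcription factor genes that mark the primitive streak. They were chosen by name as 5 of the 57133 genes in the count table, and each had a row there. The counts came from RNA-seq of PGP1, an established human induced pluripotent stem cell (iPSC) line, kept as undifferentiated cultures in mTeSR1 medium on Matrigel. The 6 libraries used here fell into 3 groups of 2: unedited PGP1 cells (WT), PCGF6-KO clone 1 (labelled KO_1) and PCGF6-KO clone 2 (labelled KO_2). Both knockouts were made with Cas9 and a pair of guide RNAs against the first exon of PCGF6, a Polycomb group ring finger protein of the repressive complex PRC1.6, and each clone carries its own deletion on both alleles. Each knockout is therefore represented by a single clone, and no library came from cells that had been exposed to a differentiation protocol. The labels do not say whether the 2 libraries of a group came from separate cultures, so the spread within a group may be technical. The p-values below measure only the spread between these libraries. In the test of PCGF6-KO against WT, each knockout library counted as a separate replicate, although these libraries came from only 2 clones. The spread in that test therefore also includes differences between the clones, and its p-values do not take the clone as the unit. The question was how far, and how evenly, the 5 streak genes differed between PCGF6-KO and WT cells, and between the 2 clones.

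The primitive streak is the structure through which epiblast cells leave the pluripotent state at gastrulation and become mesoderm or definitive endoderm. It is induced by NODAL, WNT and BMP signals. TBXT (Brachyury) and EOMES are T-box factors with partly separate duties: TBXT is needed for posterior mesoderm and the notochord, and EOMES for definitive endoderm and anterior mesoderm. MIXL1 is a paired-like homeobox factor of the nascent streak, GSC (goosecoid) is a paired-like homeobox repressor of the organizer at its anterior end, and LHX1 is a LIM-homeobox factor of the anterior mesendoderm that is also used later in kidney and nervous system. In undisturbed pluripotent cultures all 5 are normally low.

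The libraries summed to between 15877396 and 18918609 counts over all genes, and 17672 genes had enough counts to be tested. PCGF6 itself, reported first as a check of the labels, had 268 and 300 counts in the WT libraries, 99 and 103 in those of clone 1 and 187 and 159 in those of clone 2, so that all 4 knockout libraries lay below both WT libraries. Its log2 fold change was -1.15 ± 0.27 SE (adjusted p = 0.00914). Here and below, adjusted p-values come from the quasi-likelihood test of edgeR, adjusted by Benjamini-Hochberg over all tested genes. SE is an approximate standard error, the log2 fold change divided by the square root of the F statistic of that test. It can be smaller than the counting error where WT holds few counts. This call was lost when WT replicate 1 or WT replicate 2 was left out (adjusted p = 0.0511 and 0.0763), and the deletion removes only part of the transcript, so a count over the whole gene does not measure how much intact PCGF6 remained. The pluripotent state was checked with 8 marker genes, which summed to between 7961 and 8305 CPM (the count relative to the TMM-scaled library total) in WT, with 6102 to 6187 CPM for clone 1 and 5497 to 5618 CPM for clone 2. Of these 8, none was called higher and 3 were called lower: DNMT3B (a mean of 3020 CPM in WT and 1367 CPM in PCGF6-KO), SOX2 (327 and 203 CPM) and ZFP42. Over all tested genes, 14.9% were called higher and 8.70% lower. Taken by clone against WT, SOX2 was called lower in clone 2 (159 CPM) but not in clone 1 (246 CPM). POU5F1 and NANOG were not called, at a mean of 1508 and 173 CPM in PCGF6-KO against 1495 and 131 CPM in WT, and ZFP42 was at 3 counts or fewer in every knockout library against 304 and 329 counts in WT.

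All 5 genes are protein-coding, and their positions are given on GRCh38, the build to which the authors aligned, from the GENCODE annotation. TBXT lies at chr6:166157656-166168700 on the minus strand, EOMES at chr3:27715949-27722711 on the minus strand, MIXL1 at chr1:226223618-226227060 on the plus strand, GSC at chr14:94768223-94770113 on the minus strand and LHX1 at chr17:36936785-36944612 on the plus strand, so no pair of them shares a chromosome. Near their start sites TBXT is overlapped by the antisense transcript LNCDAT, over 373 exon bases, and within its body LHX1 is overlapped by the antisense transcript ENSG00000276707, over 367 exon bases. Whether reads were counted by strand is not given in the sources used here, so reads of these pairs cannot be told apart.

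The RefSeq promoter table for GRCh38.p14 held windows of 300 bases (250 before and 50 after a start site) for 4 of the 5 genes, with 2 start sites for TBXT, and it lists 35116 such windows over 27305 genes. The upstream bases of TBXT, MIXL1 and GSC are shown because these genes rose together in the knockout cells. EOMES rose too, but its window lies inside the annotated gene and is not printed. Each is printed 5′ to 3′ on the strand of its gene, up to the first annotated exon base of a protein-coding gene: TBXT at chr6:166168701-166168905 on the minus strand, MIXL1 at chr1:226223414-226223617 on the plus strand and GSC at chr14:94770114-94770363 on the minus strand. Exons of non-coding genes were not left out: the TBXT window holds exon bases of LNCDAT and the GSC window those of the lncRNA ENSG00000285205. Capitals mark the matched motifs: in MIXL1, the FOXH1 motif AATNCACA, read on the opposite strand, and then the TCF/LEF motif CTTTGAT, and in GSC the TATA box letters TATAAA.
TBXT: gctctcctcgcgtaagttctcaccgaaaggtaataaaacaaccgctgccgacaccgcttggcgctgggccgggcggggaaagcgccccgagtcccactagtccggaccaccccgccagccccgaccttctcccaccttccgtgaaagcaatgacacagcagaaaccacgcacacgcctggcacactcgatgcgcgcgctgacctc
MIXL1: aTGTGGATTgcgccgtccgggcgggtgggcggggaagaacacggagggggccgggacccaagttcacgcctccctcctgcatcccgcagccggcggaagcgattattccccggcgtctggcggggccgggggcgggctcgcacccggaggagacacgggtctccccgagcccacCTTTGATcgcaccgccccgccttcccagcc
GSC: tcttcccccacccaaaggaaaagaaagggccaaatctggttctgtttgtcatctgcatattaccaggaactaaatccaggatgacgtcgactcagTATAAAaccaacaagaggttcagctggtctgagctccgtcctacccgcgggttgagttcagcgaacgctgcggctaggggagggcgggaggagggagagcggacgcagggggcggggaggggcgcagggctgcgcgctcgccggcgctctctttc

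The windows of these genes differed in composition. The MIXL1 window was the most GC-rich, at 73.3% with 37 CpG dinucleotides, and 88.7% of all windows held fewer CpG. The windows of the first TBXT start site, of EOMES and of GSC lay at 58.3%, 61.7% and 60.3% GC with 25, 21 and 21 CpG, against a median of 58.7% and 14 over all windows. The second TBXT start site, inside the gene, had 65.7% GC and 22 CpG.

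A total of 8 short motifs were searched on both strands. CTTTGAT, bound by the TCF/LEF factors of the WNT pathway, was found in 1 of the 5 windows, MIXL1, 76 bases before the start site, and in 2.62% of all windows. AATNCACA, bound by the NODAL partner FOXH1, was likewise found in MIXL1 alone, 249 bases before the start, and in 3.31% of all windows. TATAAA was present in the TBXT, EOMES and GSC windows and in 11.5% of all windows. In TBXT and EOMES it was read on the opposite strand, in letters that overlap those of the next search. TATAA on the strand of the gene, starting between 40 and 20 bases before the start site, was found in TBXT (27 bases before it), EOMES (29) and MIXL1 (31), against 3.91% of all windows. These letters lie inside the annotated genes, outside the printed stretches. The T-box half-site GGTGTGA (3.45% of all windows), the E-box CACGTG (7.26%), the E2F motif GCGGGAA (6.55%) and the homeodomain motifs TAATCC (6.36%) and TAATTA (4.84%) had no match in these 5 windows. A match is a description of the letters, not of binding.

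TBXT was close to undetected in WT and high in both clones. The WT libraries held 0 and 12 counts, those of clone 1 held 3508 and 3065, and those of clone 2 held 5515 and 4636. Scaled to library size, the WT levels were 0 and 0.719 CPM, those of clone 1 were 183 and 169 CPM, and those of clone 2 were 304 and 289 CPM. All 4 knockout libraries lay far above both WT libraries, and both libraries of clone 2 lay above both of clone 1. Against WT replicate 2 alone, the summed counts of the 4 knockout libraries gave a ratio of 325 (exact 95% counting interval 186 to 630), and against WT replicate 1, taken at a floor of 3 counts, TBXT was at least 1283-fold higher. The size of the TBXT increase thus depended on which WT library was used. The fitted log2 fold change for PCGF6-KO against WT was 9.31 ± 0.57 SE (adjusted p = 4.3e-06), and it was 8.34 without WT replicate 1 and 15.02 without WT replicate 2, where WT holds no count.

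EOMES followed the same pattern from an equally low base. There were 3 and 5 counts in WT (0.184 and 0.300 CPM), with 2630 and 2528 for clone 1 (138 and 139 CPM) and 1615 and 1647 for clone 2 (89.1 and 103 CPM). Every knockout library was again far above both WT libraries, but here clone 1 was the higher clone and the clones did not overlap. The ratio of summed counts in PCGF6-KO to WT was 486 (exact 95% counting interval 246 to 1125), and the fitted log2 fold change was 8.87 ± 0.38 SE (adjusted p = 5.6e-07).

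MIXL1 was the only one of the 5 genes with more than 12 counts in a WT library. WT had 70 and 46 counts (4.30 and 2.76 CPM), clone 1 had 5518 and 5506 (289 and 303 CPM), and clone 2 had 5918 and 5494 (326 and 342 CPM). The knockout libraries lay close together and well above WT, with clone 2 slightly above clone 1 in CPM. Its upstream window is the one printed above with both the FOXH1 and the TCF/LEF letters. The log2 fold change of 6.48 ± 0.17 SE (adjusted p = 5.8e-08) corresponded to a ratio of summed counts of 89.2 (exact 95% counting interval 74.3 to 108).

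GSC rose as well but stayed low. Each WT library held 1 count (0.0614 and 0.0599 CPM), the libraries of clone 1 held 60 and 55 (3.14 and 3.03 CPM), and the libraries of clone 2 held 49 and 59 (2.70 and 3.68 CPM). The knockout libraries were separated from WT while the clones overlapped. Because WT held 2 counts in all, the fold is poorly bounded: the ratio of PCGF6-KO to WT was 51.4 with an exact 95% counting interval of 14.1 to 427 (adjusted p = 1.6e-05).

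LHX1 changed least. WT had 11 and 10 counts (0.676 and 0.599 CPM), against 51 and 41 for clone 1 (2.67 and 2.26 CPM) and 96 and 94 for clone 2 (5.29 and 5.86 CPM). The 3 groups formed 3 separate steps with no overlap. The log2 fold change for PCGF6-KO against WT was 2.64 ± 0.51 SE (adjusted p = 0.00353), and the ratio of summed counts was 6.19 (exact 95% counting interval 3.97 to 10.2).

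**Figure D1:**
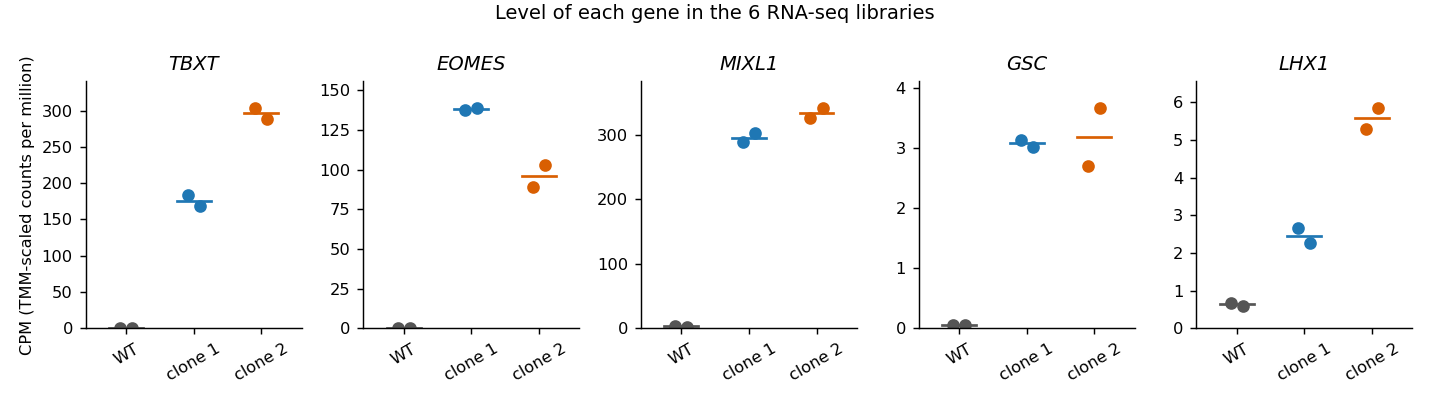
Level of TBXT, EOMES, MIXL1, GSC and LHX1 in each RNA-seq library, in CPM (count relative to the TMM-scaled library total, linear axis from 0, a different range in each panel), with 1 point per library and a line at the mean of the 2 libraries of WT, clone 1 and clone 2. All knockout points lie above the WT points, clone 2 lies above clone 1 for TBXT (304 and 289 against 183 and 169 CPM) and LHX1 and below it for EOMES, and the clones overlap for GSC.

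A gene was called when its adjusted p was under 0.05 and its log2 fold change was over 0.6 in size. By this rule 5 of the 5 streak genes were called higher in PCGF6-KO, where 14.9% of all tested genes were called higher and 8.70% lower. Each of them was also called higher in clone 1 against WT, where 16.0% of tested genes were, and in clone 2 against WT, where 16.9% were. These comparisons share the WT libraries and are not independent of each other. TBXT, EOMES and GSC entered the test through the knockout libraries alone, since they had almost no WT counts, so the count of 5 says little beyond the values above. In bulk libraries a larger fraction of cells that express a gene and more RNA per cell cannot be told apart.

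Per clone, the log2 fold change against WT was 8.89 ± 0.19 SE in clone 1 and 9.64 ± 0.19 SE in clone 2 for TBXT, and 9.11 ± 0.17 SE and 8.58 ± 0.18 SE for EOMES. These SE are narrower than the counting error. In clone 1 the exact 95% counting interval of the count ratio was 277 to 938 for TBXT and 289 to 1321 for EOMES. For MIXL1 it was 6.39 ± 0.11 SE and 6.57 ± 0.11 SE, and for LHX1 1.94 ± 0.33 SE and 3.11 ± 0.29 SE. GSC gave count ratios of 50.8 and 52.1 (exact 95% counting intervals 13.8 to 425 and 14.1 to 436). The order of TBXT and EOMES by fold is not settled in clone 1, since leaving out 1 library gave 7.92 to 14.60 for TBXT and 8.81 to 9.50 for EOMES. Nor is that of MIXL1 and GSC, as the interval of GSC includes the ratio of MIXL1 in both clones. LHX1 had the smallest fold in each clone.

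Compared per length, as CPM per kilobase of annotated exons, the 5 genes reached very different levels in the knockout cells. MIXL1 had the highest level, with a mean of 146 ± 4.98 (SD, n = 2) for clone 1 and 165 ± 5.59 for clone 2. TBXT came next at 67.0 ± 4.00 and 113 ± 4.09, followed by EOMES at 37.8 ± 0.292 and 26.2 ± 2.63. GSC (2.44 ± 0.0630 and 2.52 ± 0.545) and LHX1 (0.504 ± 0.0597 and 1.14 ± 0.0817) were far lower. Each neighbouring pair in this order was separated by more than the spread between the libraries in both clones. In WT, MIXL1 was highest at a mean of 1.74, and TBXT (0.137), LHX1 (0.131), EOMES (0.0662) and GSC (0.0480) followed in an order that rests on 12 counts or fewer per library.

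Each gene was also placed among the 17672 tested genes by the same CPM per kilobase, so the order of the 5 genes in the knockout libraries repeats the one above. MIXL1 lay above 98.9 to 99.1% of tested genes in the 4 knockout libraries, up from 43.1 and 35.5% in WT. TBXT lay above 96.8 to 98.3% and EOMES above 88.8 to 93.8% in the knockout libraries, up from 0 and 13.7% and from 3.25 and 4.97% in WT. GSC reached 42.0 to 48.1%, which is near the middle of the tested genes, and LHX1 16.3 to 31.6%. Summed, the 5 genes took 0.000535 and 0.000453% of all counts in the WT libraries, against 0.0622 and 0.0624% for clone 1 and 0.0701 and 0.0713% for clone 2. Within that sum GSC and LHX1 contributed little, so the summed share mainly describes TBXT, EOMES and MIXL1.

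**Figure D2:**
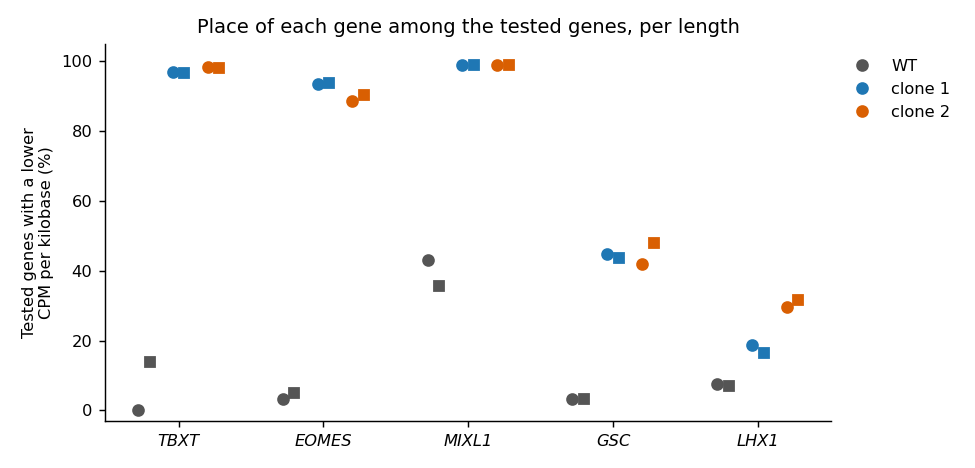
Percent of the 17672 tested genes with a lower level per length (CPM per kilobase, linear axis) than each of the 5 genes, in each library (circles replicate 1, squares replicate 2, grey WT, blue clone 1, orange clone 2). MIXL1, TBXT and EOMES moved to the upper end in the knockout libraries, while GSC reached the middle (42.0 to 48.1%) and LHX1 stayed in the lower part (16.3 to 31.6%).

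The direct comparison of the clones does not take the near-empty WT values as its reference, although the WT libraries enter the shared estimate of the spread. Of the 5 genes, 2 were called higher in clone 2 than in clone 1, TBXT and LHX1, and none was called lower, where 3.73% of all tested genes were called higher and 4.14% lower. TBXT was higher in clone 2 by 0.75 ± 0.08 SE on the log2 scale, or 1.68-fold (adjusted p = 2.3e-07), and LHX1 by 1.17 ± 0.22 SE, or 2.25-fold (adjusted p = 0.000271). EOMES went the other way, at -0.53 ± 0.07 SE (adjusted p = 5.0e-06), and was not called because the difference was under the size threshold. At an adjusted p under 0.05 without a size threshold, 8.82% of tested genes were lower in clone 2 and EOMES was among them.

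MIXL1 and GSC did not pass the test between clones. The MIXL1 difference was 0.18 ± 0.07 SE (adjusted p = 0.0574, approximate 95% interval 0.05 to 0.30), and the clones did not overlap in CPM. The GSC difference was 0.04 ± 0.25 SE (adjusted p = 0.936, interval -0.44 to 0.53), so differences in either direction remain within its interval. With 2 libraries a side, overlap of the clones in CPM is a description and not a test, and its share over all tested genes was not counted.

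The call for TBXT between clones was lost with DESeq2 fitted to all 3 groups, where its log2 fold change was 0.76 (adjusted p = 0.850). With DESeq2 fitted to the 2 clones alone, an alternative added after the data had been seen, it was 0.75 (adjusted p = 2.7e-20). A test against a fold of 1.5 in place of 0 passed neither TBXT (adjusted p = 0.205) nor LHX1 (adjusted p = 0.0574).

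Because TBXT and EOMES differed in opposite directions, their ratio separated the clones. Per length, TBXT exceeded EOMES 1.85 and 1.69 times in the libraries of clone 1, and 4.75 and 3.91 times in those of clone 2, with means of 1.77 ± 0.119 and 4.33 ± 0.590 (SD, n = 2). MIXL1 exceeded TBXT 2.18 ± 0.205 times in clone 1 and 1.46 ± 0.103 times in clone 2, and EOMES 3.85 ± 0.102 and 6.31 ± 0.419 times. LHX1 was 0.207 ± 0.0191 of GSC in clone 1 and 0.460 ± 0.0670 in clone 2. In each of these 4 ratios the libraries of the clones did not overlap. PCGF6 also differed between the clones, with clone 2 higher by 0.90 on the log2 scale (adjusted p = 5.4e-05). Its part in the other differences was not tested.

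**Figure D3:**
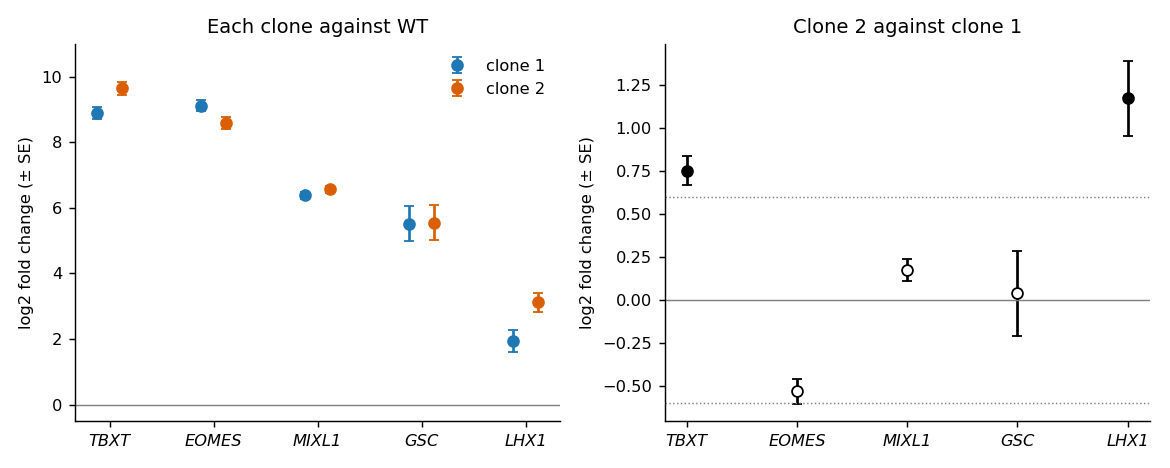
Log2 fold change with its SE for the 5 genes, in each clone against WT (left, blue clone 1, orange clone 2) and in clone 2 against clone 1 (right, filled points called, open points not called, dotted lines at ±0.6, the size threshold). All 10 values on the left are above 0, and on the right TBXT (0.75) and LHX1 (1.17) lie above the upper line while EOMES (-0.53) lies below 0.

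The signals that induce the streak, with their receptors and transducers, were followed in a list of 23 genes, of which 22 were tested and GDF1 was not, having no counts. In PCGF6-KO against WT, 11 were called higher, 1 lower and 10 were not called, with a median log2 fold change of 0.98, against 0.00 over all tested genes. The shares over all tested genes were 14.9% called higher and 8.70% lower. The signal genes called higher included ligands and nuclear factors. Among the ligands, WNT3A, which had no count in WT, was at least 52.5-fold higher against a floor of 3 counts per library, and WNT8A rose by a log2 of 7.12 ± 0.51 SE. NODAL (3.76 ± 0.15 SE), BMP4 (3.89 ± 0.26 SE) and WNT3 (3.30 ± 0.12 SE), chosen for naming after their values were seen, were also called higher. Of the WNT pathway's nuclear factors, LEF1 rose by 6.54 ± 0.24 SE and TCF7L1, the family member known mainly as a repressor in pluripotent cells, fell by 1.89 ± 0.22 SE. TCF7 (1.92 ± 0.10 SE) and SMAD3, a transducer of NODAL signals (1.41 ± 0.16 SE), also named after their values were seen, were called higher. The receptors ACVR1B, ACVR2A, ACVR2B and BMPR1A and the transducers SMAD2, SMAD4, FOXH1 and CTNNB1 were among the genes not called.

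Secreted antagonists of these signals formed a list of 8, of which 6 were called higher and none lower (median log2 fold change 2.89), where 14.9% and 8.70% of all tested genes were. DKK1, a WNT antagonist, rose by 7.92 ± 0.38 SE, FST, an activin antagonist, by 4.63 ± 0.19 SE and NOG, a BMP antagonist, by 4.30 ± 0.49 SE. LEFTY1 (-0.34, adjusted p = 0.206) and FRZB (0.65, adjusted p = 0.0692) were the genes not called. Per clone, LEFTY1 was called lower in clone 2 (-0.62, adjusted p = 0.000744) and FRZB higher in clone 1 (0.91, adjusted p = 0.000384).

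Genes of the posterior streak and early mesoderm, where TBXT acts, formed a list of 17. Of the 15 tested, 15 were called higher (median 4.78), where 14.9% of all tested genes were called higher and 8.70% lower. MESP1 and MESP2 had too few counts, at most 13 and 11 in any library. A total of 5 of the 15 had no count in WT and entered the test through the knockout libraries alone. With these at their lower bounds the median was 3.72. HAND1 was at least 394-fold higher, EVX1 at least 257-fold and CDX1 at least 77.6-fold, each against a floor of 3 counts per library. HAND1 is a factor of lateral mesoderm and heart, and EVX1 and CDX1 are homeobox genes of the posterior streak and tail end.

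The anterior streak and definitive endoderm, where EOMES, GSC and LHX1 act, were covered by 10 genes. Of the 9 tested, 5 were called higher, 2 lower and 2 were not called (median 2.04), against 14.9% higher and 8.70% lower over all tested genes. SOX17, without a count in WT, was at least 13.2-fold higher, GATA4 rose from 5 and 0 counts in the WT libraries to between 555 and 1146 in the knockout libraries, and GATA6, with 2 counts in WT, had a count ratio of 239 (exact 95% counting interval 66.0 to 1976). OTX2, an anterior and neural homeobox gene, fell by 1.26 ± 0.07 SE, and FOXA3 fell by 0.76 ± 0.16 SE. HHEX was among the genes not called (0.26, adjusted p = 0.681).

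Between the clones, where 3.73% of all tested genes were called higher and 4.14% lower, the lists gave the following counts. In clone 2 against clone 1, 11 of the 15 posterior genes were called higher and none lower (median log2 difference 0.92). Of the 9 anterior genes, FOXA2, GATA4, GATA6 and CXCR4 were called higher and none lower (median 0.31). The called genes of both lists thus went in the direction of TBXT and LHX1, opposite to that of EOMES. Of the 8 antagonists none was called in either direction (median -0.33), and 3 of 22 signal genes were called higher and 1 lower. Whether these lists differ from each other was not tested.

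The families to which the 5 genes belong were examined as a comparison, beside the shares of 14.9% called higher and 8.70% lower over all tested genes. Among 15 other T-box genes, 12 were tested, and 10 were called higher and none lower in PCGF6-KO (median 3.02, or 2.41 with genes at 0 in WT at their bounds). Most of them had almost no WT counts and entered the test through the knockout libraries alone, and 3 were called higher when at least 10 counts were required in each library. TBX3, with 2 counts in each WT library, rose by 8.31 ± 1.10 SE, TBX4 had a count ratio of 414 (exact 95% counting interval 74.2 to 16379, from 1 count in WT) and TBX2 was at least 7.69-fold higher. MGA, a T-box protein that is itself a subunit of PRC1.6, was not called (0.13 ± 0.09 SE, adjusted p = 0.313). Among 11 other LIM-homeobox genes, 9 were tested, 6 were called higher and 1 lower (median 2.35), of which 1 and 0 were called under that requirement. ISL1 rose by 3.77 ± 0.62 SE, LHX8 fell by 1.89 ± 0.52 SE, and LHX9 and ISL2, with 2 and 1 counts in WT, had count ratios of 19.8 (5.33 to 166) and 12.9 (2.14 to 528). Of the LIM-domain cofactors, 7 of 8 were tested and only LDB2 was called, higher by 0.75 ± 0.07 SE (list median -0.05). Of the paired-like homeobox relatives of GSC, PITX1 rose (count ratio 731, 131 to 28896, from 1 count in WT), while OTX1 and OTX2 fell by 1.28 and 1.26.

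Of the 15 annotated genes that overlap a streak gene or lie within 50 kb of one, 8 had a row under their name in the count table and were examined. LIN9, which lies 4089 bases from MIXL1, gave 426 and 436 counts in WT and 447 to 516 in the knockout libraries and was not called (0.06, adjusted p = 0.597). ACBD3, further from MIXL1, was not called either (0.05, adjusted p = 0.682), nor was AATF, 4313 bases from LHX1 (0.19, adjusted p = 0.0754). LINC02084, a non-coding gene 1944 bases from EOMES, had 2 and 0 WT counts, 17 and 20 counts for clone 1 and 17 and 23 for clone 2, a count ratio of 17.8 (exact 95% counting interval 4.75 to 149, adjusted p = 0.00211). The pseudogenes RPL15P2 and RPSAP4 near GSC and the snRNA gene RNU6-153P near TBXT had at most 1 count in any library.

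LHX1-DT, a non-coding gene that starts 115 bases from LHX1 on the opposite strand, did not follow LHX1. Its WT counts were 8 and 11, those of clone 1 were 0 and 3, and those of clone 2 were 10 and 12. Clone 1 lay below both other groups, while LHX1 had risen in both clones. The WT libraries exceeded clone 1 by a ratio of 7.16 (exact 95% counting interval 2.11 to 37.8, adjusted p = 0.00789), and clone 2 exceeded clone 1 by 8.00 (2.40 to 41.8, adjusted p = 0.0104). These calls rest on few counts: the first was lost with DESeq2 (adjusted p = 0.0725), without WT replicate 2 (0.0685) and without clone 1 replicate 1 (0.131), and the second without clone 1 replicate 1 (0.155) and without clone 2 replicate 2 (0.0904). In PCGF6-KO as 1 genotype LHX1-DT was not called (-0.69, adjusted p = 0.568).

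For each streak gene the 3 tested genes with the nearest profile were found, and those reported here are given with their distance. Genes with clone-type names (AC, AL or AP and digits) or LOC names were left out of these 3, but not of the ranks below. Nearness was measured by Euclidean distance over the 6 libraries of log2(CPM + 0.5) centred on its mean. The nearest genes of TBXT included the collagen gene COL3A1 (distance 1.59) and SP5 (1.62), a known WNT target. Those of EOMES included the non-coding gene PCAT14 (0.877) and ANKRD1 (0.898), which encodes an ankyrin repeat protein of muscle. MIXL1 was nearest to WLS (0.234), which carries WNT proteins to the cell surface, the actin gene ACTA1 (0.468) and ABHD12B (0.602). GSC was nearest to COLGALT2 (0.239), EPHA3 (0.259) and DACT1 (0.273), and LHX1 to MMP1 (0.194), NBPF20 (0.198) and TBX22 (0.232). Among all other tested genes, EOMES ranked 7 and MIXL1 15 in nearness to TBXT, whereas GSC ranked 360 and LHX1 705. These ranks depend on the gene they start from. In nearness to GSC, LHX1 ranked 723, MIXL1 16741, EOMES 17505 and TBXT 17635. In nearness to LHX1, GSC ranked 1195, MIXL1 17586, EOMES 17660 and TBXT 17665, of 17672 tested genes. MIXL1, GSC and LHX1 all had neighbours at a closer distance than either T-box factor. NBPF20 belongs to a family of near-identical copies, and its counts are uncertain. With 6 libraries in 3 groups the distance mainly reflects, on this scale, the size of the difference between knockout and WT and the step between the clones. The added 0.5 CPM flattens genes with few counts, so near profiles need not share a fold change. In PCGF6-KO against WT the log2 fold change was 5.53 for GSC but 2.86 for COLGALT2, 3.06 for EPHA3 and 2.62 for DACT1. For LHX1 it was 2.64, and for MMP1, with no count in WT, the fitted value was 7.88.

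Markers of other cell types also differed between PCGF6-KO and WT. Their counts, here and in the next paragraph, stand beside 14.9% called higher and 8.70% lower over all tested genes. The 8 cardiac mesoderm markers summed to 8.75 to 10.1 CPM in WT, 88.7 to 92.4 CPM for clone 1 and 150 to 171 CPM for clone 2, and 6 of 8 tested were called higher in PCGF6-KO. The endoderm markers summed to 4.97 to 5.03 CPM in WT, 18.0 to 19.3 CPM for clone 1 and 30.7 to 31.5 CPM for clone 2 (5 of 7 tested higher), with TTR at 3 counts or fewer in each library. The amnion and surface ectoderm markers summed to 12.2 to 14.7 CPM, 54.4 to 55.0 CPM and 73.7 CPM in the same groups (5 of 7 higher). In these 3 sums both clones lay above WT and clone 2 above clone 1, the order seen for TBXT and LHX1. HAND1 carried most of the cardiac step between the clones (35.1 and 42.4 CPM in clone 1, 111 and 98.2 CPM in clone 2). MYL7 went the other way (a mean of 32.7 and 29.0 CPM), as did MYH6. In clone 2 against clone 1, 2 of 8 cardiac, 3 of 7 endoderm and 3 of 7 amnion genes were called higher. KRT7 of the amnion list was called lower. Over all tested genes, 3.73% were called higher and 4.14% lower in that comparison.

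The vessel and blood markers, a sum carried by KDR (149 CPM in WT and 477 CPM in PCGF6-KO), which also stands in the posterior list, came to 155 to 156 CPM in WT, 482 to 505 CPM for clone 1 and 476 to 512 CPM for clone 2 (2 of 6 higher, 1 lower), and GATA1 was at 3 counts or fewer in every library. CDH5, the gene called lower, went from 2.13 to 0.781 CPM. Fibroblast-like markers summed to 752 to 767 CPM, 1345 to 1392 CPM and 1398 to 1483 CPM (7 of 8 higher, 1 lower). THY1, the gene called lower, carried the WT sum and went from 613 CPM to 270 CPM in PCGF6-KO. The rise of the sum was carried by COL1A1 (125 CPM in WT and 680 CPM in PCGF6-KO) and COL3A1 (0.214 and 343 CPM). Neuroectoderm markers summed to 296 to 345 CPM, 601 to 677 CPM and 631 to 720 CPM (3 of 6 higher, 2 lower), with SOX1 at 3 counts or fewer in each library. NES, an intermediate filament gene that is not confined to neural cells, carried this sum (300 CPM in WT and 647 CPM in PCGF6-KO), while HESX1 fell by 3.90 and OTX1 by 1.28 on the log2 scale. HAND1, ISL1 and KDR stand in more than 1 of the lists. The part of such cells in the levels of the 5 streak genes was not tested.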

How the data were processed

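RNA of 6 PGP1 samples was sequenced, and the study's ChIP-seq libraries were not analysed here. Per the labels and the study's methods, the authors trimmed reads with Trim Galore 0.6.2, mapped them to GRCh38 (HISAT2 2.1.0) and used featureCounts to count reads over genes. The values used are the raw counts the authors deposited, with the exon length of each gene. The annotation release and strand setting are not given in the sources used here. Groups were taken from the labels.

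Counts were tested in R 4.3.3 with edgeR 4.0.16 (TMM scaling, filterByExpr, glmQLFit and glmQLFTest) and adjusted by Benjamini-Hochberg over all 17672 genes tested. PCGF6-KO against WT was fitted with 2 genotypes, and the clone comparisons with 3 groups in 1 fit, which share an estimate of the spread (common biological coefficient of variation 0.120 and 0.0524). A call needed an adjusted p under 0.05 and a log2 fold change over 0.6 in size. CPM was computed from TMM-scaled library sizes. Counting intervals are exact (95%), for summed counts, and cover counting error only. Totals of 15877396 to 18918609 counts mean that a gene at 3 counts, the floor used, lies near 0.182 CPM.

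Alternatives were DESeq2 1.42.0, other filters and scalings, a prior count of 2, a test against a fold of 1.5 and each library left out. The procedure was tested on simulated data. The 5 genes, the gene lists and the tests were chosen with earlier results of these data known, and the motifs and the TATA window after the sequences had been seen. Genes were named by a rule. It took the 5 genes, PCGF6 and up to 3 called genes with the largest rise and fall per list. It also took neighbours within 50 kb and the 3 nearest profiles per gene, without clone-type and LOC names. Exceptions are said where they occur, and a few genes that the rule names are not reported here.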

Additional observations from a re-analysis of the deposited data

Results flagged for a closer look

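The following results differed between the clones at an adjusted p under 0.05 (edgeR, quasi-likelihood test, Benjamini-Hochberg) and are given as log2 differences of clone 2 against clone 1. TBXT (0.75) and EOMES (-0.53) differed in opposite directions, although both are T-box factors of the streak and both rose against WT. LHX1 was higher in clone 2 (1.17), as were PCGF6 (0.90) and LHX1-DT (2.89, from 3 counts in clone 1).

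Among the signal genes WNT8A (0.77) and LEF1 (0.42) were higher in clone 2 and TCF7L1 lower (-0.78). Of the antagonists DKK1 was higher (0.51) and FST lower (-0.42). GATA4 (1.04) and GATA6 (1.35) of the anterior list were higher in clone 2, and so were HAND1 (1.43), EVX1 (0.65) and CDX1 (1.03) of the posterior list. TBX4 (1.01), TBX3 (1.68), ISL1 (1.25) and PITX1 (1.32) were higher in clone 2 as well.

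OTX1 in the 4 PCGF6-KO libraries had 1 library apart from the rest: clone 2 replicate 1 lay at 1.65 CPM and the others between 1.31 and 1.32 CPM, a gap of 0.964 of the whole range. Chance flags about 1 in 20 such groups.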

How the results depend on the processing

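PCGF6-KO against WT, clone 1 against WT and clone 2 against WT called 5 of the 5 streak genes under every alternative run but 1: with at least 10 counts required in every library, MIXL1 and LHX1 alone were tested, and 2 were called in each comparison. The highest adjusted p of any of them was 0.0426, for LHX1.

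Between the clones, 2 streak genes were called. This became 1 with at least 10 counts in every library (LHX1), 1 with DESeq2 (LHX1), 0 in the test against a fold of 1.5 and 3 without clone 2 replicate 2, where EOMES reached -0.64. Leaving out 1 library gave 2 to 3. The difference turned negative without clone 2 replicate 2 for GSC (-0.19 to 0.26 over the libraries left out) and LINC02084 (-0.083 to 0.53). LHX1-DT in clone 2 against WT was -0.061 to 0.38, below 0 without clone 2 replicate 2 or WT replicate 1 (-0.03). The cause of these changes was not tested.

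Genes called numbered 4167 (PCGF6-KO), 4379 (clone 1), 5197 (clone 2) and 1390 (clone 2 against clone 1). By adjusted p alone they were 6556, 8002, 8904 and 3442, with 4266, 4629 and 1883 higher in the last 3. Against a fold of 1.5 the first was 2621 and the last 403 (212 higher). DESeq2 gave 810 between clones (407 higher), or 746 (387 higher) on the 2 clones alone, a setting added after the data had been seen. When every library had to hold 10 counts or more, 382 were higher in clone 2.

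Gene lists moved mainly with that filter, which removes genes near 0 in WT: called higher were 3 antagonists, 1 anterior, 9 posterior, 3 T-box, 1 LIM-homeobox and 1 paired-like gene, and 0 LIM-homeobox genes lower. Between clones it left 1 anterior, 5 posterior and 2 T-box genes higher, and the test against a fold of 1.5 left 2, 6 and 3. LIM cofactors called higher were 3 without a filter, 3 with DESeq2 and 2 with the mean of the 2 clones, and LIM-homeobox genes called lower were 0 with DESeq2 and 0 against a fold of 1.5. By adjusted p alone, 4 signal genes and 1 cofactor were lower, and against a fold of 1.5, 1 anterior gene was lower. Leaving out 1 library gave 1 to 2 anterior and 0 to 1 LIM-homeobox genes lower, 3 to 6 LIM-homeobox genes higher (3 without WT replicate 1) and 1 to 2 cofactors higher.

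Same-numbered libraries did not deviate together in every pair of groups (Pearson r across genes 0.068, 0.080 and 0.194), so the numbers were not taken as pairs. With a replicate block the calls of the 5 streak genes were the same (5, 5, 5 and 2), with 3876, 4420, 5233 and 1484 genes called, and the adjusted p for PCGF6-KO against WT was 0.000114 for TBXT and 0.0119 for LHX1.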
